A study of Mus musculus with 4 samples.

Results

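The insulin-like growth factor (IGF) axis was followed here through 10 genes in spatial transcriptomic data from the mouse brain. They are the ligand genes Igf1 and Igf2, the long non-coding RNA gene H19, the receptor gene Igf1r and the binding protein genes Igfbp2, Igfbp3, Igfbp4, Igfbp5, Igfbp6 and Igfbp7. They are 10 of the 32285 genes counted, and all 10 were counted in the deposited tables. The set was named for its pathway and chosen on its measured values, namely the UMIs (counted RNA molecules) per 10000 UMIs of each slice, in spots at the tissue edge against interior spots, and in spots with at least 5 Col1a1 UMIs per 10000 against spots with 0. Col1a1 encodes the main chain of type I collagen. Below, spots with at least 5 are called fibrotic and spots with 0 are called Col1a1-free. In those contrasts the members' values are therefore a description, with no p-value, and nothing is read from how many were called.

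Cortical sections from 8 mice, 1 slice each, lay 2 to a capture area on 4 Visium arrays, whose spots each cover a small region holding several cells. Wild-type mice gave 1 slice at rest, 1 slice 2 days after photothrombotic (PT) injury (2 dpi), 2 slices at 7 dpi and 2 slices at 21 dpi. PT injury makes a focal cortical infarct by light-triggered clotting. The last area held 2 slices at 21 dpi from mice of genotype Cthrc1(creER); R26(DTA), called deleter mice, in which cells that express Cthrc1, a gene of myofibroblasts, are meant to be killed by diphtheria toxin. The submitters set these mice aside because they could not detect the deletion. Rest and 2 dpi had no replicate, and the 2 slices of their shared area were told apart only by the number of spots, with the smaller piece taken as rest. Slice numbers within a group carry no meaning, and time and genotype coincided with the capture area for all groups but rest and 2 dpi.

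The 2 dpi slice was the largest, and the other 7 held 827 to 1591 spots. Slices held 11332780 to 23677298 UMIs. The median spot held 12447 to 16158 UMIs in 7 slices and 2633.5 at 2 dpi. Fibrotic spots numbered 3 at rest, 26 at 2 dpi, 112 and 392 at 7 dpi, 170 and 203 in wild-type slices at 21 dpi, and 193 and 274 in deleter slices. The class is a share of UMIs, so shallow spots enter it on few Col1a1 UMIs. The median fibrotic spot held 1309 UMIs at 2 dpi and 4923.5 and 9206.5 at 7 dpi. It held 10828 and 13879 in wild-type and 11111 and 12233 in deleter slices at 21 dpi. Fibrotic spots were thus shallower at 7 than at 21 dpi. In 7 dpi slice 1, 23.2% of the spots were at an edge, against 10.02% to 18.4% in the other slices. Markers of neurons, astrocytes and oligodendrocytes, 11 genes in all, were each detected in all 8 slices. The sexes also differed between times: Xist was at 1.06 and 0.948 UMIs per 10000 in the slices at 7 dpi against 0.00229 and 0.000882 in 21 dpi wild-type slices, whereas the Y-linked Ddx3y was at 0.683 and 0.710 in those wild-type slices and at 0.00466 and 0.559 in the deleter slices. Between 7 dpi and wild-type 21 dpi, time and sex cannot be told apart.

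IGF1 and IGF2 are secreted growth factors that act mainly through the receptor tyrosine kinase IGF1R, while IGFBPs bind them in the extracellular space and can hold them back, carry them or release them when cleaved. In the brain, microglia and macrophages are known sources of IGF1, whereas IGF2 is made by meninges and choroid plexus. H19 and Igf2 are neighbouring imprinted genes, in most tissues expressed from the maternal and the paternal copy respectively, and both are abundant in fetal tissue. Which copy was expressed was not measured here. H19 RNA is also the precursor of miR-675.

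On the GRCm38.p6 reference, H19 (chromosome 7 from 142575530 to 142578146) lay 72621 bases from Igf2 (chromosome 7 from 142650768 to 142666816). Igfbp2 (chromosome 1 from 72824480 to 72852474) and Igfbp5 (chromosome 1 from 72858065 to 72874865) were 5590 bases apart. Igf1 was on chromosome 10 from 87858265 to 87937047, Igf1r on chromosome 7 from 67952257 to 68233668, Igfbp3 on chromosome 11 from 7206086 to 7215498, Igfbp4 on chromosome 11 from 99040005 to 99052655, Igfbp6 on chromosome 15 from 102144186 to 102149512 and Igfbp7 on chromosome 5 from 77349240 to 77408045. No other counted gene overlapped any of the 10 on its own strand.

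The imprinted pair carries miRNAs within its transcripts. Their mature sequences from RefSeq are shown because H19 is the member with the widest range across slices, and the capitals mark the seed, bases 2 to 8. The miR-675 arms lie inside H19 at chr7:142577112-142577133 and chr7:142577078-142577099, and the miR-483 arms inside Igf2 at chr7:142654968-142654989 and chr7:142654932-142654952, all on the minus strand of GRCm38.p6. The 4 seeds differ from each other. Poly(A) capture does not measure mature miRNAs, so only the host genes have values here.
mmu-miR-675-5p: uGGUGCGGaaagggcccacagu
mmu-miR-675-3p: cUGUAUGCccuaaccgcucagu
mmu-miR-483-5p: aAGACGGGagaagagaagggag
mmu-miR-483-3p: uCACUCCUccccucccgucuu

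Promoter windows from 250 bases before to 50 after a RefSeq start (GRCm38.p6) were found for 9 of the 10 genes, 13 windows in all. They were searched on both strands for the core of the TATA box (letters TATAAA), the core of the GC box (letters GGGCGG) and the core of the AP-1 site (letters TGANTCA), and no window printed below holds overlapping matches. TATAAA stood in 2 of the 13 windows, those of Igfbp4 and Igfbp6, against 13.6% of all 32851 promoters. GGGCGG stood in 5 of the 13, from Igf1r, Igf2, Igfbp2 and Igfbp7, against 35.7% of all promoters, and TGANTCA in 2 of the 13, from Igf1 and Igfbp2, against 7.81%. A match is a run of letters and not a measured site. The windows of Igf1, Igfbp4, Igfbp5 and Igfbp6 are printed with motif matches in capitals. Igf1 was higher in the phagocyte-rich spots described below at 7 dpi, and less clearly so in wild-type slices at 21 dpi. Igfbp4, Igfbp5 and Igfbp6 are the binding protein genes with the widest gap between 7 and 21 dpi in fibrotic spots. Igf1 is at chr10:87860861-87861160, Igfbp4 at chr11:99040994-99041293 and Igfbp6 at chr15:102143936-102144235 on the plus strand, and Igfbp5 is at chr1:72874816-72875115 on the minus strand. The windows of Igf1 and Igfbp4 lie inside the gene spans given above, at a start downstream of the first base of the span.
Igf1: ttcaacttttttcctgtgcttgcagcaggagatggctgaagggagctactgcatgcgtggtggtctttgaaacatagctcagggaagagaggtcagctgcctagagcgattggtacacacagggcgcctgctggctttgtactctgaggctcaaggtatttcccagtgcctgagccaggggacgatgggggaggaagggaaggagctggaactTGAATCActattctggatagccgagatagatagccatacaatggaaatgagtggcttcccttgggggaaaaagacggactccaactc
Igfbp4: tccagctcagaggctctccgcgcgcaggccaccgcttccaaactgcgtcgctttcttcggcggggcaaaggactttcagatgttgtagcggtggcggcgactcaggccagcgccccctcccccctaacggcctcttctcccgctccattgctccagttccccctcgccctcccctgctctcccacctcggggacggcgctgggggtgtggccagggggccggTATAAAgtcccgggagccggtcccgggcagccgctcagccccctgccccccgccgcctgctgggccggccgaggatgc
Igfbp5: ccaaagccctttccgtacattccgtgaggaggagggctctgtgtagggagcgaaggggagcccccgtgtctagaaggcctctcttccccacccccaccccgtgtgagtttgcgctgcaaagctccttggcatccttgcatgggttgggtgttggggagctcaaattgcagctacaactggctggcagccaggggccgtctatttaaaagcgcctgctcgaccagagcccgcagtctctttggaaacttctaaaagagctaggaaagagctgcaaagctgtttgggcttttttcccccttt
Igfbp6: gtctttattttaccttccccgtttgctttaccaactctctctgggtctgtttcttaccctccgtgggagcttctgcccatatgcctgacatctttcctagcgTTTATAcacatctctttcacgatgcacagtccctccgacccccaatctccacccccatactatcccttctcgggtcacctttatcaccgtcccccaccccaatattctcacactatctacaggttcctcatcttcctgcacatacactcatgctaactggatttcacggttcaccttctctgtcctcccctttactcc

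The maps of all spots give the layout. Igf1 filled the lesion and a zone beyond the collagen-rich tissue at 7 dpi, whereas Igf2 also marked the brain surface and tissue inside the section. Most H19 lay in the collagen-rich area in the slices at 7 and 21 dpi, with 58.0% and 95.5% of its UMIs in fibrotic spots at 7 dpi, 81.8% and 90.9% in wild-type slices at 21 dpi and 83.2% and 93.0% in deleter slices. Fibrotic spots held 5.64%, 32.5%, 12.8%, 25.2%, 19.97% and 15.3% of all UMIs in those 6 slices in the same order. H19 was in this sense the member most concentrated in collagen-rich spots, and the rule used that contrast.

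**Figure D1:**
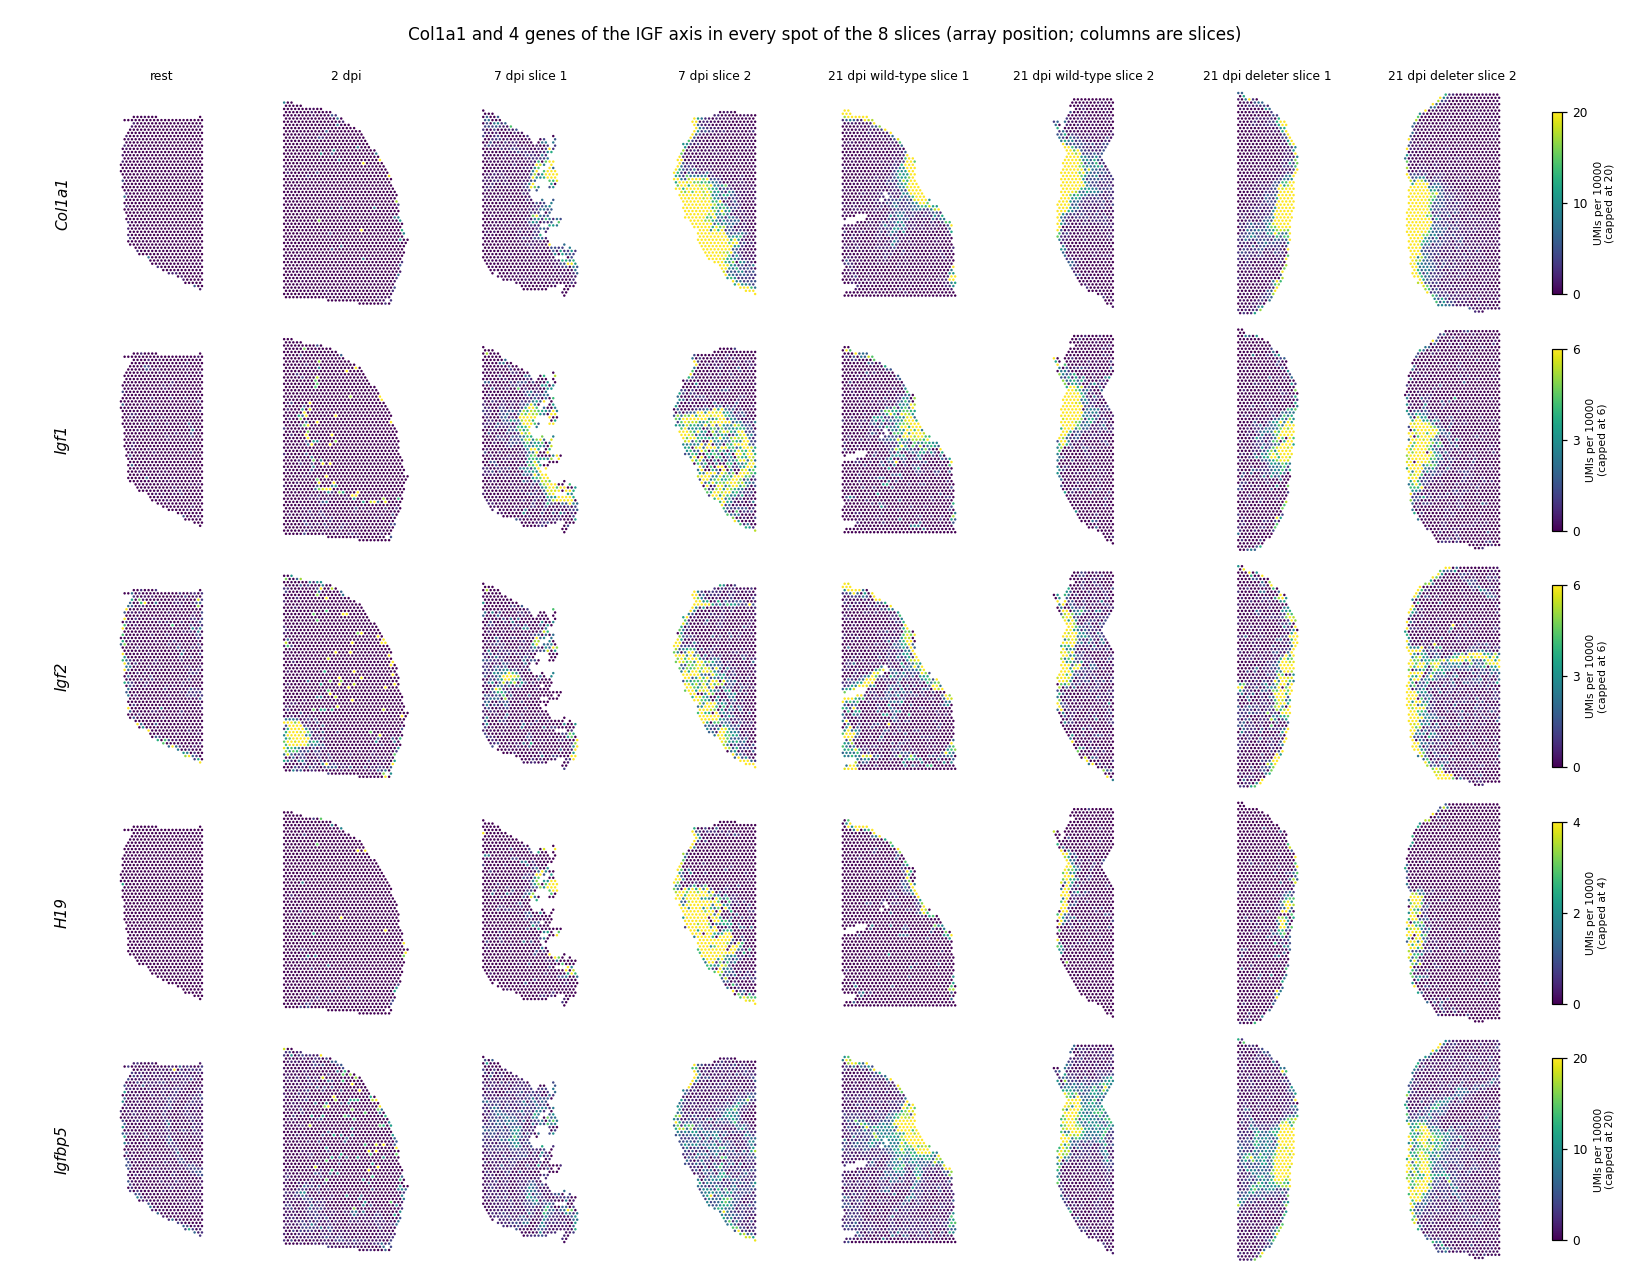
Maps of Col1a1, Igf1, Igf2, H19 and Igfbp5 in every spot of the 8 slices, drawn by array position, with colour giving UMIs per 10000 UMIs of the spot up to the cap on each colour bar. Just beyond the Col1a1 area, Igf1 is at 2.94 and 1.79 UMIs per 10000 at 7 dpi and at 0.148 and 0.311 in wild-type slices at 21 dpi, and at 2 dpi Igf2 is high in a patch at the lower left of the slice, at 5.56 where choroid plexus genes are high and 0.292 elsewhere.

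Among the ligands, Igf1 was low at rest (0.0556 UMIs per 10000 over all spots) and at 2 dpi (0.173). It was at 1.07 and 2.09 at 7 dpi, 0.858 and 1.57 in wild-type slices at 21 dpi and 1.07 and 0.831 in deleter slices, so the 6 slices at 7 and 21 dpi were all above the slices at rest and 2 dpi and overlapped each other. In fibrotic spots, Igf1 was at 4.17 and 3.96 at 7 dpi, 3.88 and 5.35 in wild-type and 3.83 and 4.31 in deleter slices at 21 dpi. In Col1a1-free spots it was at 0.539 and 0.863 at 7 dpi, 0.121 and 0.112 in wild-type and 0.133 and 0.0784 in deleter slices. The times thus overlapped in fibrotic spots, whereas in Col1a1-free spots both slices at 7 dpi stood above the 4 slices at 21 dpi.

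Igf2 was at 0.235 UMIs per 10000 over all spots at rest, 1.12 at 2 dpi, 0.690 and 1.68 at 7 dpi, 1.26 and 1.26 in wild-type and 1.36 and 1.28 in deleter slices at 21 dpi. Fibrotic spots held 2.03 and 4.34 at 7 dpi, 3.66 and 3.64 in wild-type and 4.71 and 4.25 in deleter slices. Col1a1-free spots held 0.446 and 0.246, 0.479 and 0.324, and 0.239 and 0.567 in the same order. Each of the 6 slices was higher in its fibrotic spots, and 7 dpi slice 1 was the lowest of them there.

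H19 ranged most widely. A single H19 UMI was counted in the whole slice at rest, and 50 at 2 dpi. Over all spots it was at 0.200 and 1.86 UMIs per 10000 at 7 dpi, 0.204 and 0.389 in wild-type and 0.241 and 0.204 in deleter slices at 21 dpi. The fibrotic share of spots in this pair of 7 dpi slices was 11.5% and 41.4%. Within fibrotic spots H19 was at 2.05 and 5.47 at 7 dpi against 1.31, 1.41, 1.00 and 1.24 at 21 dpi, so both slices at 7 dpi stood above all 4 slices at 21 dpi. In Col1a1-free spots it was at most 0.0619. In bulk sums such as these, fewer cells of a type and less RNA per cell cannot be told apart.

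The receptor gene Igf1r was the least variable member, at 0.422 UMIs per 10000 at rest, 0.436 at 2 dpi and 0.438 to 0.516 in the other 6 slices. It was the only member with a lower level in fibrotic than in Col1a1-free spots in all 6 slices at 7 and 21 dpi, with 0.354 and 0.396 against 0.507 and 0.492 at 7 dpi, 0.429 and 0.350 against 0.450 and 0.524 in wild-type, and 0.323 and 0.424 against 0.441 and 0.549 in deleter slices. The exact Poisson 95% intervals of both classes overlapped in 7 dpi slices 1 and 2, wild-type slice 1 and deleter slice 1, and did not in wild-type slice 2 and deleter slice 2.

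The binding protein genes fell into unlike patterns. Igfbp5, the most abundant of them, was at 4.63 and 7.09 UMIs per 10000 in fibrotic spots at 7 dpi and at 26.2, 14.1, 23.7 and 15.7 at 21 dpi, while Col1a1-free spots held 2.33 and 2.28 at 7 dpi and 1.36 to 1.72 at 21 dpi. Igfbp4 was at 0.933 and 2.14 in fibrotic spots at 7 dpi and at 4.15 to 4.57 at 21 dpi. Igfbp6, which binds IGF2 in preference to IGF1, was at 0.401 and 0.731 against 1.81 to 2.70. Igfbp7, a low-affinity relative abundant in vessels, was at 2.79 and 5.39 against 6.30 to 8.16. For these 4 genes, both slices at 7 dpi lay below all 4 slices at 21 dpi in fibrotic spots.

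Igfbp2 and Igfbp3 did not show that order. Igfbp2 was at 1.79 and 1.43 UMIs per 10000 in fibrotic spots at 7 dpi and at 1.15 to 1.89 at 21 dpi, so the times overlapped. Over all spots its highest level was at 2 dpi, 2.81 against 0.472 at rest. Igfbp3, the main carrier of IGFs in blood, was at 0.909 and 0.926 in fibrotic spots at 7 dpi and at 0.428 to 0.981 at 21 dpi, and at 0.0454 to 0.149 in Col1a1-free spots of those slices.

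**Figure D2:**
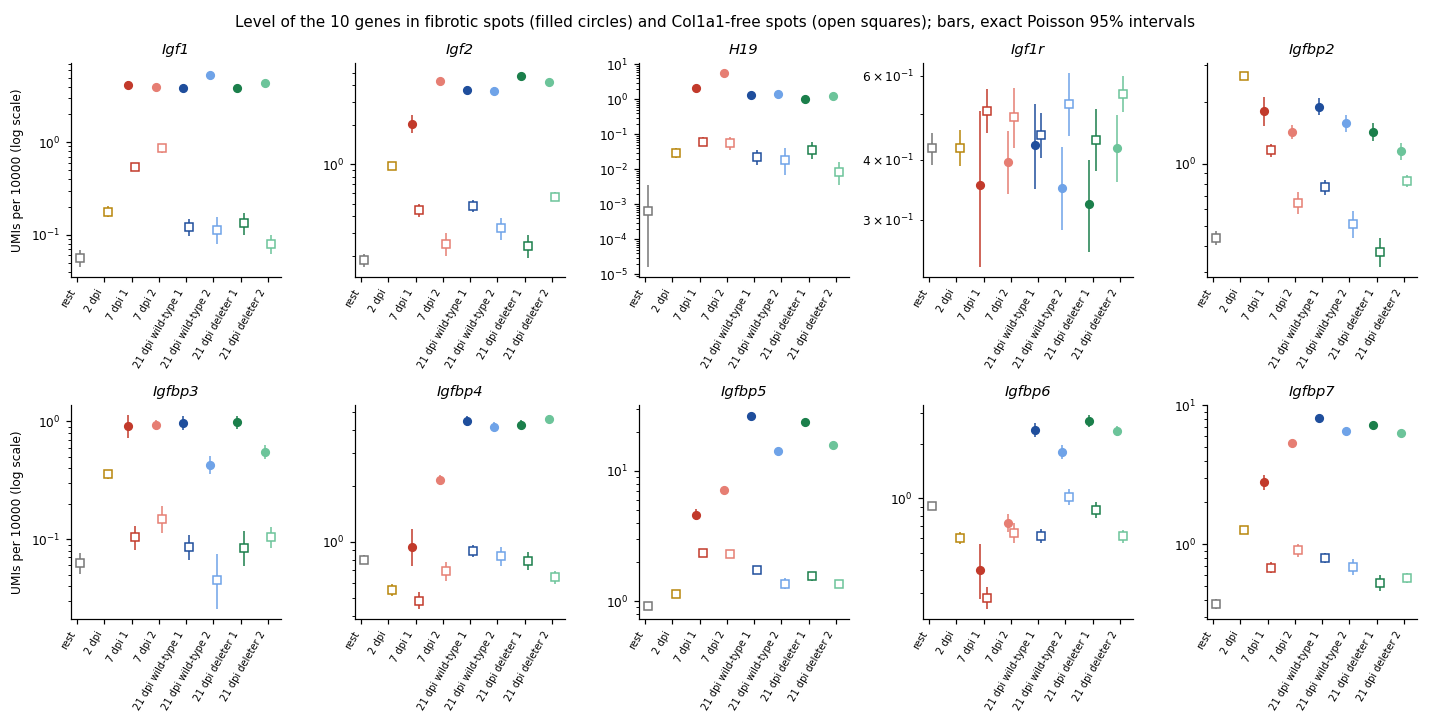
Level of each of the 10 genes in UMIs per 10000 on a log scale, in fibrotic spots (filled circles, 6 slices) and Col1a1-free spots (open squares, 8 slices), with bars for exact Poisson 95% intervals, which cover counting error only. Igfbp4, Igfbp5, Igfbp6 and Igfbp7 sit higher in fibrotic spots of all 4 slices at 21 dpi than at 7 dpi, whereas H19 sits lower (1.00 to 1.41 against 2.05 and 5.47).

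Rest and 2 dpi were set side by side with 1 slice each and no test. The ratio of the level at 2 dpi to that at rest was 3.12 for Igf1 (95% counting interval 2.43 to 4.02), 4.79 for Igf2 (4.27 to 5.37), 5.96 for Igfbp2 (5.51 to 6.45), 5.61 for Igfbp3 (4.54 to 6.99) and 3.67 for Igfbp7 (3.35 to 4.03). Igfbp4 and Igfbp6 were lower at 2 dpi, with ratios of 0.738 and 0.685, and Igf1r had 1.03 (0.922 to 1.16). For H19, with 1 UMI against 50, the ratio was 62.5 with an interval of 10.7 to 2516.

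Choroid plexus tissue moved with these ratios. Spots with at least 100 UMIs per 10000 of 6 choroid plexus genes, among them Ttr, numbered 113 at 2 dpi and 6 at rest. They held 15.8% of all UMIs at 2 dpi, but 78.1% of the Igf2 UMIs, 54.0% of the Igfbp2 UMIs and 30.3% of the Igfbp7 UMIs. Igf2 was at 5.56 UMIs per 10000 in them and at 0.292 in the other spots of that slice. Without these spots the ratio of 2 dpi to rest was 1.26 for Igf2 (1.08 to 1.47), 3.31 for Igfbp2 (3.04 to 3.61) and 3.06 for Igfbp7 (2.78 to 3.38), and 3.48 for Igf1, 6.05 for Igfbp3 and 72.2 for H19. Choroid plexus spots also carried 41.6% of the Igf2 UMIs of 7 dpi slice 1, 38.4% of those of wild-type slice 1 and 25.02% of those of deleter slice 2, where they made up 70, 118 and 74 spots. The cut of 100 was set after the maps had been seen.

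In the paired comparison of fibrotic with Col1a1-free spots, over the 2 slices at 7 dpi and the 2 wild-type slices at 21 dpi, the fitted log2 difference was 5.94 for H19 (SE 0.27), 3.91 for Igf1 (SE 0.60), 3.25 for Igf2 (SE 0.31), 3.19 for Igfbp3 (SE 0.18) and 2.88 for Igfbp7 (SE 0.24). It was 2.56 for Igfbp5, 1.91 for Igfbp4, 1.25 for Igfbp2, 0.97 for Igfbp6 and -0.28 for Igf1r. The call rule used throughout, an adjusted p under 0.05 in edgeR, took 9 of the 10 members in this contrast against 57.2% of the 13305 genes tested, and since the contrast chose the members nothing is read from it. Just outside the threshold, spots with 3 to 5 Col1a1 UMIs per 10000 held 0.0420 to 0.418 H19 UMIs per 10000 in the 6 slices, and those just inside, with 5 to 7, held 0.0831 to 1.25. For Igf1 the values were 0.890 to 3.18 outside and 1.24 to 4.34 inside, and for Igfbp5 2.07 to 8.60 and 3.07 to 12.2. Each of these bins held 24 to 91 spots.

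Other genes of the axis were tested in the same contrast. Of 24 listed, 13 had enough counts, and 7 were higher and 2 lower in fibrotic spots, with a median log2 difference of 0.62 against 0.00 over all genes. The higher genes included Grb10, an adaptor that dampens insulin and IGF receptor signalling (1.85, SE 0.15, adjusted p = 0.000249), Igf2r, the receptor that clears IGF2 (1.80, SE 0.13, adjusted p = 0.000203), and Igf2bp2, an RNA-binding protein gene (1.77, SE 0.31, adjusted p = 0.00276). Igf2r was at 0.437 and 0.503 UMIs per 10000 in fibrotic spots at 7 dpi and 0.447 and 0.350 in wild-type slices at 21 dpi, against 0.144, 0.141, 0.141 and 0.0999 in Col1a1-free spots. The sorting receptor gene Sorl1 (-1.26, SE 0.13, adjusted p = 0.000404) and the adaptor gene Grb14 (-1.11, SE 0.36, adjusted p = 0.0346) were lower. The Grb14 call was lost among interior spots (0.0558) and without wild-type slice 1 (0.128) or either slice at 7 dpi (0.115 and 0.118).

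H19 and Igf2 were also set beside 22 other genes listed as imprinted, 18 of which were tested. Imprinting was not measured, so whether a listed gene, Dcn included, is imprinted in this tissue is not known from these data. In fibrotic spots 5 were higher and 9 lower, and their median log2 difference was -0.28. Grb10 and Igf2r are on this list too, so they count in both lists. Dcn is also among the fibroblast markers used below. Dcn, a collagen-binding proteoglycan of fibroblasts, had the largest difference (5.21, SE 0.25, adjusted p = 7.49e-05), followed by the growth inhibitor gene Cdkn1c (2.82, SE 0.35, adjusted p = 0.000714). The largest of those lower in fibrotic spots were Usp29 (-2.14, adjusted p = 0.000849), Meg3, a long non-coding RNA gene of neurons (-1.87, adjusted p = 0.000779), and Snrpn (-1.82, adjusted p = 0.000363). Neuronal markers were lower in fibrotic spots too, at 6.37 to 9.53 UMIs per 10000 for 4 genes in those 4 slices against 23.8 to 51.1 in Col1a1-free spots. Their part in these differences was not tested.

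Edge spots, with at least 1 of 6 neighbouring positions off the tissue, were compared with interior spots in the same way. The log2 difference was 1.53 for H19 (SE 0.34), 1.15 for Igf2 (SE 0.23) and 0.83 for Igfbp4 (SE 0.19), and between 0.16 and 0.64 for the other 7 members. Edge spots include spots with Col1a1. Of the 130, 471, 159 and 123 H19 UMIs at the edge, those at 7 dpi first, Col1a1-free spots held 9, 1, 1 and 1. Most edge H19 thus lay in spots with Col1a1, and the part of these spots was not tested. Igf2 was at 0.858, 3.32, 3.68 and 2.04 UMIs per 10000 at the edge and 0.660, 1.39, 0.959 and 1.13 inside in the slices at 7 dpi and the wild-type slices at 21 dpi, and at 1.00 against 0.151 at rest. No member was called, against 0.211% of the 14239 genes tested, 30 genes, which is again a description, since the rule used this contrast. None of 15 other genes of the axis or 20 imprinted genes was called (at an unadjusted p under 0.05, 1282 of all genes). By DESeq2, 171 of all genes were called. Markers of leptomeninges, the inner meninges, moved with the edge, at 13.3, 34.6, 54.9 and 41.3 UMIs per 10000 for 6 genes at the edge against 7.66, 7.69, 28.1 and 28.3 inside, and choroid plexus markers were at 518 at the edge of wild-type slice 1 against 66.6 inside. Their part was not tested.

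Between times in fibrotic spots, the log2 difference of 7 minus 21 dpi (wild type) was 1.496 for H19 (SE 0.34), -1.80 for Igfbp6 (SE 0.25), -1.78 for Igfbp5 (SE 0.29), -1.43 for Igfbp4 (SE 0.28) and -0.83 for Igfbp7 (SE 0.26). It was -0.19 for Igf1, -0.17 for Igf2, -0.12 for Igfbp2, -0.03 for Igf1r and 0.40 for Igfbp3. Of the 10 members, 4 were called against 3.90% of the 12912 genes tested, and nothing is read from that count, since levels per slice chose the members. Among other axis genes, 3 of 14 were called and all were lower at 7 dpi: Igfbpl1 (-3.19, SE 0.70, adjusted p = 0.0334), the receptor substrate gene Irs1 (-1.03, SE 0.22, adjusted p = 0.0307) and Htra1, a protease that cleaves IGFBPs (-0.97, SE 0.21, adjusted p = 0.0306). Igfbpl1 rested on 1 and 2 UMIs at 7 dpi (0.0118 and 0.00455 per 10000) and 10 and 19 UMIs at 21 dpi (0.0447 and 0.0666). These 3 calls were lost without 7 dpi slice 1 (adjusted p of 0.147, 0.101 and 0.0836 for Igfbpl1, Irs1 and Htra1), and those of Igfbpl1 and Irs1 also without 7 dpi slice 2 (0.436 and 0.0833) and with DESeq2 (0.433 and 0.195).

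Of the 18 imprinted genes tested there, Dcn (-1.54, SE 0.18, adjusted p = 0.00200) and Cdkn1c (-1.47, SE 0.21, adjusted p = 0.00521) were lower at 7 dpi and Meg3 (0.74, SE 0.16, adjusted p = 0.0364) was higher. The Meg3 call was lost at 10 Col1a1 UMIs per 10000 (0.0887), without wild-type slice 1 (0.189) and without either slice at 7 dpi (0.100 and 0.126). H19 thus ran opposite to Dcn and Cdkn1c between these slices. The summed fibroblast list (Col1a1, Col1a2, Col3a1, Dcn, Lum and Pdgfra) was at 52.2 and 94.2 UMIs per 10000 in fibrotic spots at 7 dpi and at 83.5 and 118 in wild-type slices at 21 dpi, and leptomeningeal markers were at 14.7 and 19.6 against 96.5 and 58.3, so they moved in the direction of Igfbp4, Igfbp5, Igfbp6 and Igfbp7. Their part was not tested. In Col1a1-free spots the largest log2 difference of a member was 2.57 for Igf1 (SE 0.27), and 1 of 10 members was called against 2.34% of 13905 genes; no other axis gene (14 tested) and no imprinted gene (19 tested) was called there, with 326 calls over all genes.

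Whether a gene marks the tissue next to fibrotic spots was tested, because the rule pooled all Col1a1-free spots and did not split them by distance. The fibrotic class is set by Col1a1 alone, and 3 spots of the slice at rest met it, so it is not confined to the scar. The test is not independent of the choice of genes, since the rule used the pooled level of these same spots. Near spots, 1 or 2 spots from the nearest fibrotic spot, were compared with far spots, at least 5 away, within each slice. Near spots held 2.94 and 1.79 Igf1 UMIs per 10000 at 7 dpi and 0.148 and 0.311 in wild-type slices at 21 dpi. Far spots held 0.269, 0.282, 0.106 and 0.0859 in the same order. Near spots were higher than far spots in all 4 slices, and those of wild-type slice 1 lay within the range of the far spots of the other slices. The near levels rested on 95 and 75 Igf1 UMIs at 7 dpi but on 8 and 7 in the wild-type slices. The direction at 21 dpi is therefore uncertain. The fitted log2 difference was 2.58 (SE 0.33, adjusted p = 0.000116).

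Igfbp2 (0.95, SE 0.23, adjusted p = 0.0197) and Igfbp7 (0.77, SE 0.18, adjusted p = 0.0163) were also higher near fibrotic spots. Igfbp2 was at 1.77, 1.10, 0.720 and 1.38 UMIs per 10000 near and 0.972, 0.423, 0.791 and 0.414 far, so wild-type slice 1 went the other way. Igfbp7 was at 0.743, 1.55, 1.33 and 0.755 near and 0.588, 0.690, 0.711 and 0.664 far. H19 had too few UMIs in Col1a1-free spots and was the 1 member filtered out of the main fit. Near spots held 9, 5, 3 and 2 H19 UMIs and far spots 22, 12, 13 and 3, in the same order. Per 10000 UMIs it was higher near in all 4 slices. It passed the threshold under each alternative that kept it, among them no filter on low counts, but on these few UMIs. In total 3 of the 9 members tested were called, against 5.40% of 11268 genes. The other 6 were not, with log2 differences of 1.17 for Igfbp3, 0.77 for Igfbp6, 0.29 for Igf2, 0.16 for Igf1r, 0.14 for Igfbp5 and -0.11 for Igfbp4 and adjusted p-values of 0.0662 to 0.837. Without choroid plexus spots the Igf2 difference was 0.86, and Igf2 passed the threshold under no alternative. The Igfbp2 call was lost when the deleter slices were added (adjusted p = 0.182), at 10 Col1a1 UMIs per 10000 (0.600), among interior spots (0.0602), with near as 1 to 3 spots (0.122), and when either slice at 7 dpi or wild-type slice 2 was left out (0.0973, 0.256 and 0.0880). The Igfbp7 call was lost without 7 dpi slice 2 (0.287), without wild-type slice 1 (0.0626), among interior spots (0.0619) and with DESeq2 (0.0570). Igfbp6, at 0.0662, passed with the deleter slices (0.00191) and under 4 other alternatives.

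Of the 11 other axis genes tested near against far, Grb14 was called, lower near fibrotic spots (-0.89, SE 0.21, adjusted p = 0.0159), and without 7 dpi slice 1 or 2 its adjusted p was 0.0750 or 0.252. Of 18 imprinted genes, Dcn was called (1.29, SE 0.24, adjusted p = 0.00219), and with near as 1 to 3 spots its adjusted p was 0.0825. Macrophage and microglia markers moved with Igf1: their 9 genes summed to 56.5, 41.4, 9.54 and 11.3 UMIs per 10000 near and 12.2, 10.9, 5.36 and 3.45 far. Fibroblast markers were at 3.90, 3.17, 2.77 and 1.86 near and 1.07, 0.830, 1.09 and 0.981 far. Near spots of 7 dpi slice 1 were also shallow, with a median of 4298 UMIs against 17116 far. The part of these in the result was not tested.

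The difference between times was tested as an interaction, chosen after the data had been seen. The near-minus-far log2 difference of Igf1 was larger at 7 than at 21 dpi by 2.20 (SE 0.48, adjusted p = 0.0135), the 1 call among 9 members, against 0.914% of genes. The call was lost when either slice at 7 dpi or wild-type slice 1 was left out (adjusted p of 0.151 to 0.895), and with fibrotic spots defined at 10 Col1a1 UMIs per 10000, where the value was 0.88. By distance, Igf1 in 7 dpi slice 1 went from 4.03 UMIs per 10000 at 1 spot to 2.33 at 2 spots, 1.48 at 3 to 4, 0.406 at 5 to 7 and 0.168 at 12 or more. In 7 dpi slice 2 it was 1.46, 2.10, 2.36, 0.543 and 0.0765 over the same distances. In the 4 slices at 21 dpi it was 0.217 to 0.958 at 1 spot and at most 0.164 at 2 spots.

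**Figure D3:**
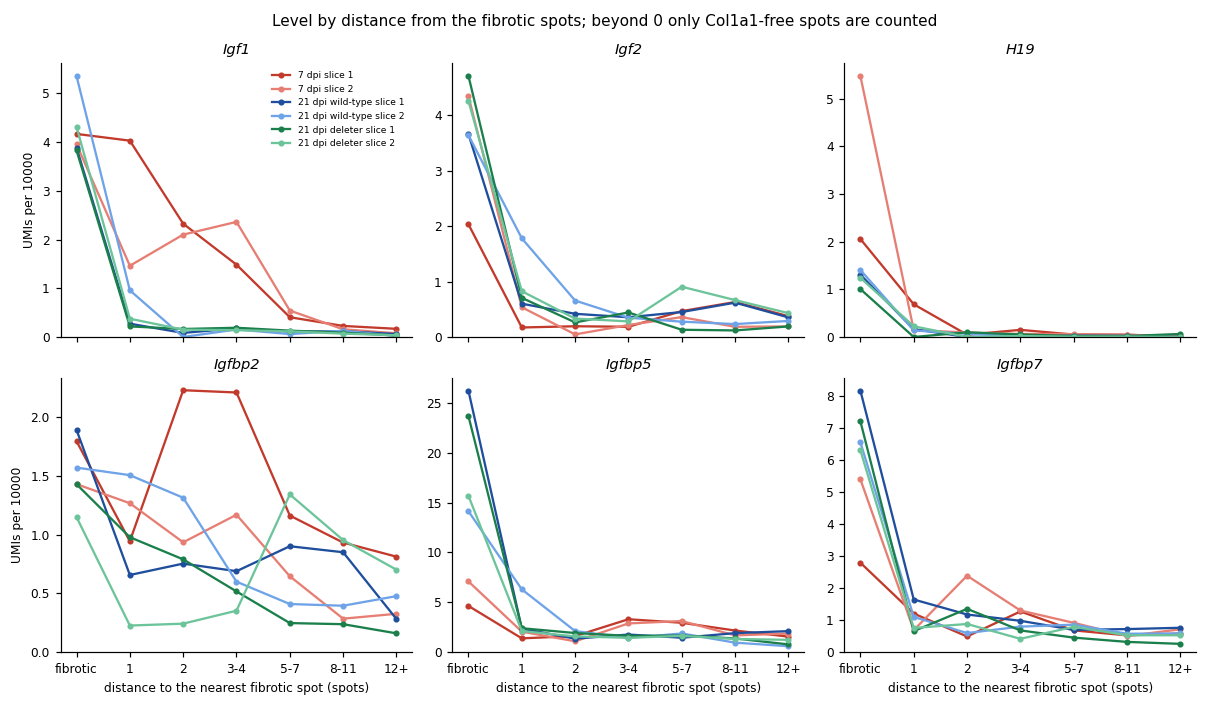
Level of 6 genes in UMIs per 10000 by distance to the nearest fibrotic spot, counted in spots, with 1 line per slice for the 6 slices at 7 and 21 dpi and only Col1a1-free spots beyond the first point. Igf1 stays above 1.4 UMIs per 10000 out to 3 to 4 spots in both slices at 7 dpi and is at most 0.958 at 1 spot in the 4 slices at 21 dpi, while H19 and Igfbp7 drop at 1 spot in all 6.

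Next, Col1a1-free spots were ranked within each slice by summed Trem2, Gpnmb and Cd68, genes of phagocytic macrophages and microglia, and the top 10% were compared with the lower 50%. Phagocyte-rich spots held 3.02 and 5.11 Igf1 UMIs per 10000 at 7 dpi against 0.160 and 0.159 in phagocyte-poor spots. At 21 dpi (wild type) the values were 0.373 and 0.0989 against 0.0729 and 0.0981, so wild-type slice 2 showed almost no difference. The fitted log2 difference was 3.55 (SE 0.74, adjusted p = 0.0284). The 2 dpi slice, outside this test, had 1.28 in phagocyte-rich and 0.102 in phagocyte-poor spots, and the slice at rest had 0.0372 and 0.0435.

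Igfbp5 and Igfbp7 were higher in phagocyte-rich spots as well. Over the 4 slices in the same order, Igfbp5 was at 4.55, 2.53, 4.10 and 3.82 UMIs per 10000 in rich spots, all above the 0.850 to 1.45 of poor spots (log2 difference 1.74, SE 0.24, adjusted p = 0.00771). Igfbp7 was at 1.52, 1.95, 1.71 and 1.15 against 0.466 to 0.599 (1.66, SE 0.23, adjusted p = 0.00814). With these, 3 of the 9 members tested were called, against 9.36% of 10450 genes. Igfbp3 had 1.297 (adjusted p = 0.0521), Igfbp2 1.31 (0.117), Igf2 0.60 (0.197), Igf1r 0.25 (0.507), Igfbp4 0.08 (0.817) and Igfbp6 -1.38 (0.0744). Of 11 alternatives, Igfbp3 and Igfbp6 passed the threshold under 4 each, Igfbp2 under 2 and Igf2 under 1.

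The 3 calls of members were lost without 7 dpi slice 1. Without it no gene at all was called by edgeR (1796 genes at an unadjusted p under 0.05), and the adjusted p was 0.202 for Igf1, 0.0912 for Igfbp5 and 0.0943 for Igfbp7, at log2 differences of 3.05, 1.71 and 1.57. By the levels given above, Igfbp5 and Igfbp7 were higher in rich spots of every slice that entered the fit. Igf1 also missed the threshold without wild-type slice 1 (0.0568) and with the top 20% of spots (0.0686). Of 11 other axis genes none was called. Of 17 imprinted genes Dcn was higher (0.98, SE 0.25, adjusted p = 0.0480), and Zrsr1 (-1.12, SE 0.25, adjusted p = 0.0327) and Ndn, a gene of neurons (-1.03, SE 0.22, adjusted p = 0.0295), were lower, and none of these 3 passed without 7 dpi slice 1 or without wild-type slice 1. The macrophage and microglia list, which includes the 3 ranking genes, was at 77.4 and 121 UMIs per 10000 in rich spots at 7 dpi and at 22.9 and 14.9 at 21 dpi, so the rich spots of the 2 times held unlike amounts of these markers. Their part in the result was not tested.

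The interaction with time, again chosen after the data had been seen, was 2.96 for Igf1 (SE 0.57, adjusted p = 0.0123) and 2.17 for Igfbp2 (SE 0.38, adjusted p = 0.00836), the 2 members called of 9 against 8.15% of genes. Igfbp2 was at 2.44 and 1.89 UMIs per 10000 in phagocyte-rich spots at 7 dpi against 0.629 and 0.348 in poor spots, and at 0.980 and 0.396 against 0.734 and 0.563 at 21 dpi. Without wild-type slice 2 the adjusted p was 0.0520 for Igf1 and 0.0613 for Igfbp2. With the top 20% of spots as rich, no gene was called by edgeR, with 2284 genes at an unadjusted p under 0.05. Of the other lists, Grb14 (-1.86, adjusted p = 0.0202) of 11 axis genes, and Rian (-2.19, adjusted p = 0.00990), Snrpn (-1.96, adjusted p = 0.0318) and Meg3 (-1.71, adjusted p = 0.0460) of 17 imprinted genes were lower at 7 than at 21 dpi in this difference, and of these 4 Rian alone passed without wild-type slice 2.

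Vessel-rich spots, the top 10% of Col1a1-free spots by the endothelial genes Cldn5, Flt1, Pecam1 and Ly6c1, were compared with the lower 50%. Igf2 was at 0.797, 0.383, 0.811 and 0.912 UMIs per 10000 in vessel-rich spots of the 4 slices, those at 7 dpi first, and at 0.326, 0.172, 0.439 and 0.222 in vessel-poor spots. It was higher in all 4 (log2 difference 1.32, SE 0.20, adjusted p = 2.71e-05). Igfbp2 was at 1.85, 1.41, 1.21 and 1.15 against 0.961, 0.558, 0.671 and 0.469 (1.12, SE 0.15, adjusted p = 5.89e-06). Igfbp7 was at 1.61, 2.36, 0.914 and 1.67 against 0.514, 0.725, 0.698 and 0.525 (1.40, SE 0.17, adjusted p = 1.43e-06). These 3 genes were past the threshold under every alternative run for this comparison.

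Igfbp5 was higher too, at 2.88, 3.003, 2.001 and 1.59 UMIs per 10000 against 2.19, 2.01, 1.61 and 1.36 (0.44, SE 0.13, adjusted p = 0.0239), but it lost the call with DESeq2 (0.102), among interior spots (0.117), with no filter on low counts (0.139), and without wild-type slice 1 (0.119) or either slice at 7 dpi (0.0725 and 0.131). In all, 4 of the 9 members tested were called, against 8.47% of 10484 genes. Igf1 was not (0.40, SE 0.20, 95% interval -0.01 to 0.82, adjusted p = 0.245), nor were Igfbp3 (0.54), Igfbp4 (0.16), Igf1r (-0.01) or Igfbp6 (-0.04). No member was called for a difference between times, where edgeR called 0.286% of genes. Igfbp7 came nearest, with 0.73 (adjusted p = 0.545).

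Of 11 other axis genes, Htra1 was higher in vessel-rich spots (0.58, SE 0.13, adjusted p = 0.00290) and Sorl1 lower (-0.64, SE 0.16, adjusted p = 0.0106, and 0.108 without 7 dpi slice 2), and of 17 imprinted genes Dcn was higher (1.70, SE 0.24, adjusted p = 8.58e-06). Leptomeningeal markers moved with the vessel genes, at 9.34, 7.74, 32.9 and 45.3 UMIs per 10000 in rich and 5.31, 6.84, 12.7 and 11.9 in poor spots. Pericyte and smooth muscle markers were at 2.12, 2.89, 1.67 and 1.70 against 0.810, 0.716, 0.582 and 0.636. Their part was not tested. With choroid plexus spots left out, the log2 differences were 1.76 for Igf2, 1.36 for Igfbp2 and 1.52 for Igfbp7, each larger than with them.

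**Figure D4:**
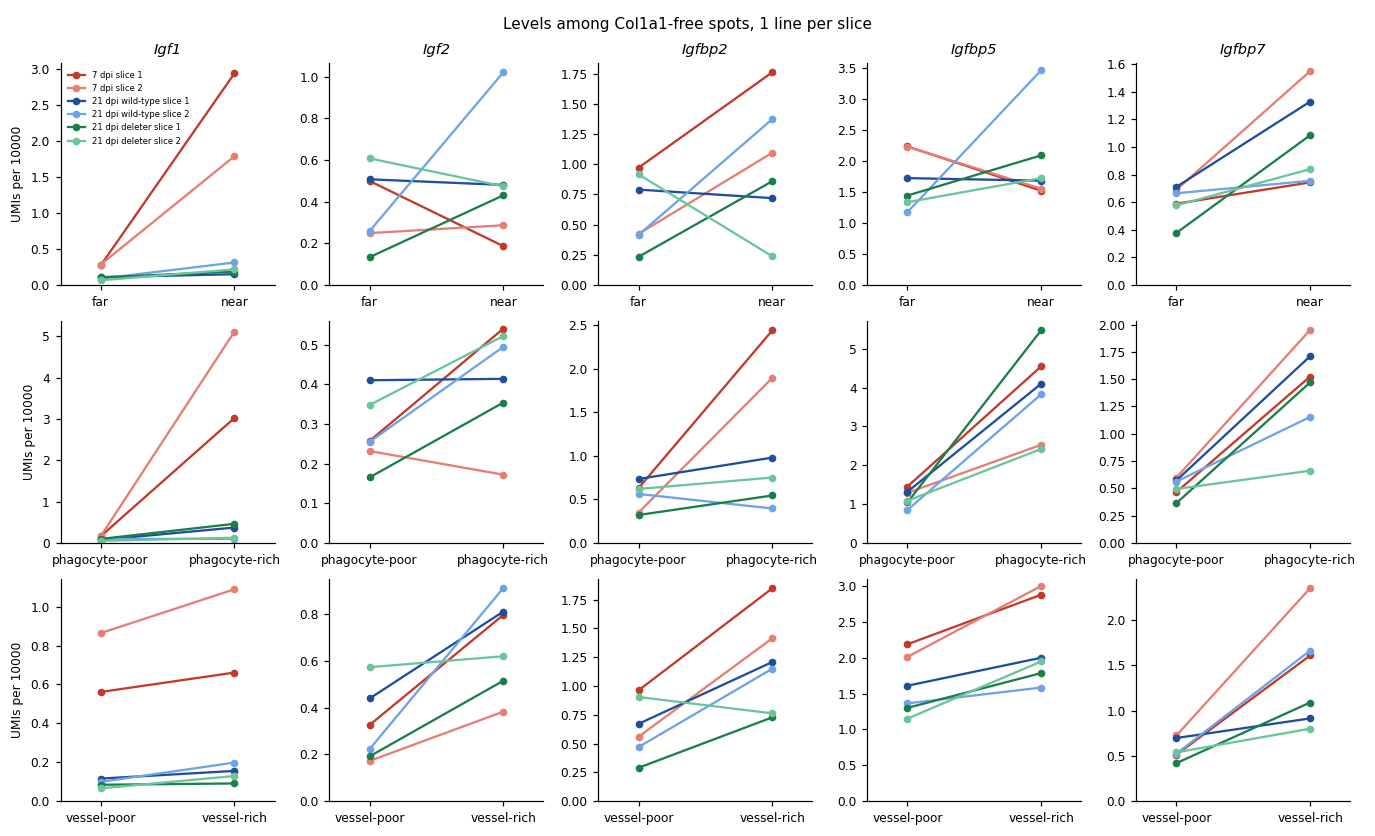
Levels of 5 genes in UMIs per 10000 among Col1a1-free spots, far against near (top row), phagocyte-poor against phagocyte-rich (middle row) and vessel-poor against vessel-rich (bottom row), with 1 line per slice for 6 slices. The Igf1 lines of both slices at 7 dpi rise to 1.79 or more with near and to 3.02 or more with phagocyte-rich spots and those of 21 dpi stay at or below 0.463, while Igf2, Igfbp2 and Igfbp7 rise with vessel-rich spots in the 4 slices that entered the fit.

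The deleter slices were compared with the wild-type slices at 21 dpi. The rule did not use genotype, but it used the levels of these same slices and spot classes. This test is therefore not independent of the choice of genes, and nothing is read from how many members were called. In fibrotic spots no member was called, against 0.00772% of 12945 genes (1 gene, and 899 at an unadjusted p under 0.05). The log2 difference, wild type minus deleter, ran from -0.30 for Igf2 (95% interval -0.56 to -0.05, adjusted p = 0.715) to 0.42 for Igfbp2 (0.06 to 0.78, adjusted p = 0.715), and was 0.26 for H19 (-0.07 to 0.60) and 0.17 for Igf1 (-0.21 to 0.56). In Col1a1-free spots edgeR called no gene of 13679 (0%, with 487 at an unadjusted p under 0.05, and DESeq2 called 7), and members ran from -0.56 for Igfbp3 (-1.33 to 0.21) to 0.34 for Igfbp7 (0.03 to 0.65). None of 14 and 13 other axis genes and none of 18 and 19 imprinted genes was called in fibrotic and Col1a1-free spots. By DESeq2, 8 genes were called in fibrotic spots. These intervals are not adjusted for the number of genes, and missing the threshold does not show that the genotypes are alike.

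The targeted gene Cthrc1 was at 0.219 and 0.175 UMIs per 10000 in fibrotic spots of the wild-type and 0.101 and 0.132 in those of the deleter slices (log2 difference 0.72, SE 0.25, adjusted p = 0.715), and at 1.16 and 1.09 at 7 dpi. The 1 gene called was Esr1, the oestrogen receptor gene, named after its values were seen. It was at 1.04 and 1.46 in wild-type and at 0.0701 and 0.0303 in deleter fibrotic spots (4.71, SE 0.32, adjusted p = 0.0116), and at 0.413 and 0.642 at 7 dpi. Genotype and capture area cannot be told apart. By the Ddx3y levels given above, sex was also uneven between the genotypes, and its part was not tested.

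**Figure D5:**
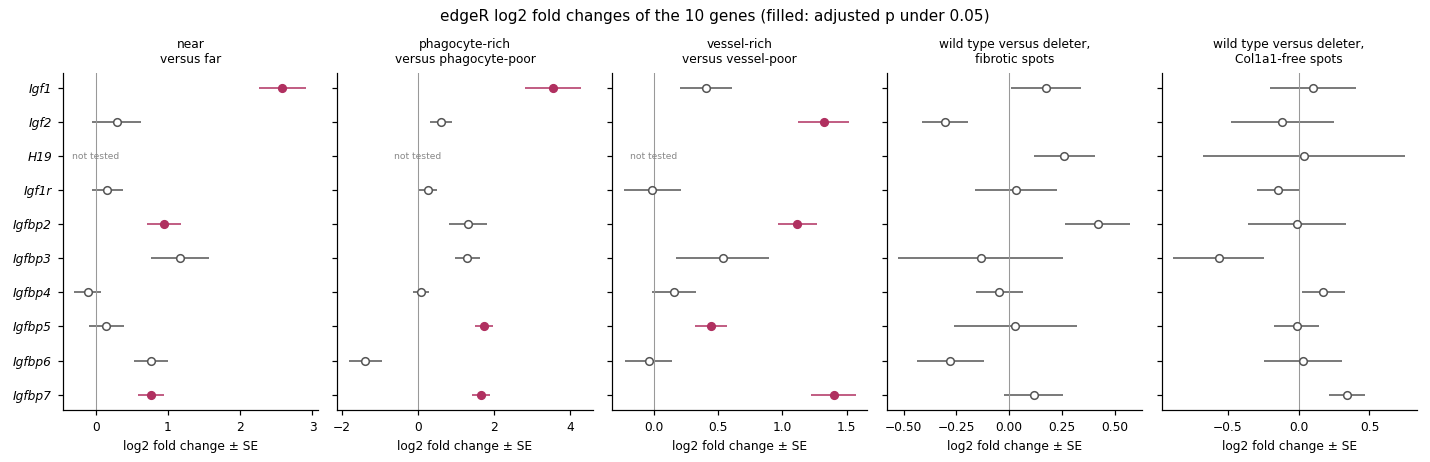
Fitted log2 fold changes with standard errors for the 10 genes in the 5 comparisons whose splits the rule did not use. Filled points mark an adjusted p under 0.05 in edgeR. The spots are among those whose pooled levels the rule used, and the genotype comparisons fit those very levels per slice. Igf1 has the largest difference near fibrotic spots (2.58) and in phagocyte-rich spots (3.55), Igf2, Igfbp2 and Igfbp7 the largest in vessel-rich spots (1.12 to 1.40), and no gene passes between genotypes.

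Finally, the genes whose levels ran most like 4 members were listed over 23 sums of spots (fibrotic, Col1a1-free edge and Col1a1-free interior spots of each slice, with at least 20 spots) among 14151 genes, as a description, since the sums share slices, areas and depth. The sums are also split by Col1a1 and by edge, as in the rule that chose the members. Members higher in fibrotic spots would therefore run like collagen genes by construction, and nothing is read from that likeness. For H19 these were Col5a2, Col4a1 and Col6a3, all collagen genes (Pearson r of 0.979, 0.974 and 0.971). For Igf1 they were Ctsb, Creg1 and Ctss (0.980, 0.978 and 0.977), of which Ctsb and Ctss encode lysosomal cathepsins. For Igf2 they were Pcolce, an enhancer of collagen processing, Col8a1 and Lbp (0.967, 0.954 and 0.949), and for Igfbp5 Mrc2, Fbln1 and Scara3 (0.964, 0.964 and 0.963). Among the members, Igfbp4 and Igfbp5 (0.934), Igfbp5 and Igfbp7 (0.933) and Igf2 and Igfbp7 (0.919) ran most alike, while the neighbours H19 and Igf2 had 0.831 and the neighbours Igfbp2 and Igfbp5 had 0.427. Igf1r had a negative r with all 9 other members, from -0.492 to -0.114.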

How the data were processed

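The authors deposited, for each of 4 capture areas, raw counts of UMIs per gene and spot, made per the labels with Space Ranger 2.0.0 on mm10 (GRCm38), together with spot positions. The study's data statement names the mm10 reference package of 10x Genomics. Spots over tissue were split into 2 connected pieces per area, 1 per mouse, and UMIs were summed per slice and class of spots, since spots are not replicates. Each group holds 1 or 2 mice, and the precision is limited by that number and by 11332780 to 23677298 UMIs per slice. Areas share 1564 to 1959 spot barcodes, as each array prints the same set, and spots were joined by area and barcode.

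Sums were tested with edgeR 4.0.16 (R 4.3.3): TMM, filterByExpr, quasi-likelihood F test, slice as a block for comparisons within slices, Benjamini-Hochberg over all genes tested, threshold 0.05. Standard errors were worked back from the fitted log2 difference and its F statistic, and the intervals of fitted log2 differences were built from them. The edgeR fits of the near, phagocyte, vessel and genotype comparisons were tested on simulated sums with known changes. Those sums held no differences between slices other than depth, and neither the interactions with time nor DESeq2 were simulated. DESeq2 1.42.0, no filter, other class limits, deeper spots and each slice left out in turn were alternatives, and the interactions with time, the edge without array borders and the choroid plexus alternatives were added after the data had been seen. No doublet caller was run, and spots were given no cell type name. The members and lists were chosen with earlier results of these data known. Named were all 10 members, up to 5 genes per list and comparison past the threshold with the largest log2 change, and the 3 genes most like each of H19, Igf2, Igf1 and Igfbp5. Esr1 and Cthrc1 were added after their values were seen. Sequences are from RefSeq, GRCm38.p6.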

Additional observations from a re-analysis of the deposited data

Results flagged for a closer look

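For Igf1, the log2 difference between near and far spots was larger at 7 than at 21 dpi by 2.20, and that between phagocyte-rich and phagocyte-poor spots by 2.96, each by an edgeR interaction test. For Igfbp2, the difference between phagocyte-rich and phagocyte-poor spots was larger at 7 dpi by 2.17. These interactions were chosen after the data had been seen. The Igf1 call near fibrotic spots was lost at 10 Col1a1 UMIs per 10000, where the value was 0.88. Both phagocyte calls were lost with the top 20% of spots, and each of these calls was lost in some fits with 1 slice left out. Igfbp6 lay on opposite sides in the vessel comparison: both slices at 7 dpi were slightly higher in vessel-rich spots (log2 ratios of 0.05 and 0.11) and both wild-type slices at 21 dpi were lower (-0.03 and -0.53), a mean difference of 0.36. This last pattern was noted from the signs and was not tested as such, and the interaction fitted for Igfbp6 had an adjusted p of 0.961.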

How the results depend on the processing

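The Igf1 calls near fibrotic spots and the Igf2, Igfbp2 and Igfbp7 calls in vessel-rich spots were past the threshold under all alternatives run, and no value in the within-slice or genotype comparisons changed sign while past it. Of the log2 values tried, 6 of 121 (near against far), 2 of 101 (phagocyte), 8 of 101 (vessel), 11 of 80 and 13 of 70 (genotype, fibrotic and Col1a1-free spots) changed sign. The totals within slices include some values of H19, which the main fits there had filtered out, so its sign could not change. Numbers of genes called moved as follows, and the cause was not tested where settings other than the number of slices or genes changed. With no filter on low counts, calls were 1054 near against far, 2501 for phagocytes, 270 and 122 between genotypes in fibrotic and Col1a1-free spots, 147 at the edge, and 1123 and 1525 between times in fibrotic and Col1a1-free spots. With DESeq2 they were 2043 for phagocytes, 280 for vessels, 8 and 7 between genotypes, 171 at the edge and 298 between times in fibrotic spots. With the deleter slices added they were 946 near against far, 2700 for phagocytes, 1345 for vessels, 430 at the edge, and 253, 1897 and 13 for the differences between times of the near, phagocyte and vessel comparisons. With near taken as 1 to 3 spots, calls were 383, and 230 for the difference between times. At 10 Col1a1 UMIs per 10000 that difference had 4 calls and the genotypes in fibrotic spots 4, and with far at 8 spots it had 66. With the top 20% of spots, the phagocyte comparison had 519 calls and its difference between times 0 (2284 genes at an unadjusted p under 0.05). With interior spots, the differences between times had 60, 476 and 0 calls for near, phagocyte and vessel (538 genes at an unadjusted p under 0.05 in the last). Without choroid plexus spots, those of near and vessel had 46 and 14. The outer 2 rings as edge gave 17 calls, and leaving out the array border gave 475.

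With 1 slice left out, calls were 153 to 908 near against far (lowest without 7 dpi slice 2), 0 to 1298 for phagocytes (0 without 7 dpi slice 1), 429 to 872 for vessels, 1 to 155 and 0 to 3 between genotypes, 0 to 237 at the edge (0 without 7 dpi slice 2, with 945 genes at an unadjusted p under 0.05), 236 to 863 and 45 to 382 between times, and 1 to 204, 165 to 2403 and 2 to 104 for the 3 differences between times. Members called near fibrotic spots numbered 1 to 5, with 1 among interior spots and 5, H19 among them, with no filter. In phagocyte-rich spots they numbered 0 to 6, and 6 with the deleter slices. Signs turned for members far from the threshold. Near against far, Igf2 was -0.0097 with near as 1 to 3 spots and -0.28 to 0.64 with 1 slice left out. Its highest value was 0.86, without choroid plexus spots. In the same comparison Igf1r was -0.027 to 0.37 with 1 slice left out. Igfbp4 was 0.13 and Igfbp5 -0.11 at 10 Col1a1 UMIs, and Igfbp5 was -0.31 to 0.36 with 1 slice left out. Igfbp4 in phagocyte-rich spots was -0.026 with the deleter slices and -0.062 with no filter. In vessel-rich spots, Igf1r was 0.12 with the deleter slices, 0.063 with the top 20% and -0.28 to 0.25 with 1 slice left out. Igfbp6 there was 0.013 with the deleter slices, 0.16 with the top 20%, -0.12 to 0.087 with 1 slice left out and 0.027 without choroid plexus spots. Igf1 between genotypes in Col1a1-free spots was -0.32 to 0.50 with 1 slice left out. No paired analysis was possible because the labels give no numbers shared between the groups of times or genotypes, and comparisons within slices already had the slice as a block. Depth limits H19 most, with at most 0.0619 UMIs per 10000 in Col1a1-free spots.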

Other observations

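Member UMIs were also set against the summed UMIs of a cell type list in the same spots, as values with no test. Per 100 UMIs of the macrophage and microglia list, Igf1 was at 2.66 in Col1a1-free spots at rest and 2.83 at 2 dpi, and in far spots at 2.20 and 2.57 at 7 dpi and 1.98 and 2.49 in wild-type slices at 21 dpi. In fibrotic spots it was at 6.90 and 6.83 at 7 dpi, 7.07 and 10.3 in wild-type and 8.39 and 9.63 in deleter slices at 21 dpi, so all 6 slices were higher there than in their far spots. In near spots it was at 5.21 and 4.32 at 7 dpi against 1.55 and 2.76 at 21 dpi. In fibrotic spots, both slices at 7 dpi were below all 4 at 21 dpi on this scale. The gap to wild-type slice 1 was narrow, 6.90 on 353 Igf1 UMIs against 7.07 on 869, so this order is uncertain. In phagocyte-rich spots, chosen by 3 genes of the list, it was at 3.91 and 4.24 at 7 dpi and 1.63 and 0.665 in wild-type slices at 21 dpi. Phagocyte-poor spots held 2.44, 4.29, 2.71 and 3.88. It was thus higher in rich spots in 7 dpi slice 1 and about level in 7 dpi slice 2. In both wild-type slices at 21 dpi it was lower in rich spots, in the second on 3 Igf1 UMIs.

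Per 100 UMIs of the fibroblast list in fibrotic spots, H19 was at 3.93 and 5.81 at 7 dpi and at 1.56, 1.20, 0.761 and 0.865 at 21 dpi, with no overlap between the times. Igf2 was at 3.89 and 4.61 at 7 dpi and at 2.97 to 4.38 at 21 dpi, which overlapped. Igfbp5 was at 8.86 and 7.53 at 7 dpi and at 10.9 to 31.4 at 21 dpi.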
